A study of Mus musculus with 6 samples.

Results

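The 46 probes described here had a higher value in each of 3 TG-PKR1 hearts than in any of 3 WT hearts, and a TG-PKR1 mean at least 0.4 above the WT mean on the log2 scale. They were chosen by this rule from the authors' table of 19996 normalized probes, of which they make up 0.230%. They stand for 44 genes, counting 1 name of the array without a gene symbol. The rule used the values of the same 6 hearts that are given below, so these values are a description and carry no test of the difference. The rule is no significance test and is not the method by which the study chose its own probes. The study's own list also has 46 probes of 44 genes, and whether the probes are the same was not compared. Whole hearts of male mice aged 12 weeks were profiled on single-dye Agilent arrays, with 1 mouse and 1 array per heart. The WT group held wild-type mice. The TG-PKR1 group held transgenic mice that overexpress prokineticin receptor 1 (PKR1), a G protein-coupled receptor, under the α-myosin heavy chain promoter, which is active in cardiomyocytes. Per the study's methods the mice were kept on a C57BL6/J background. The labels name no treatment.

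A whole heart mixes cardiomyocytes with endothelial, mural, stromal, immune and fat cells, and an array probe reads the transcripts of all of them together. Fewer cells of a type and less RNA per cell can therefore not be told apart. Cardiomyocytes live on mitochondrial oxidation of fatty acids, lactate and glucose, they control contraction through cyclic AMP and potassium currents, and they renew their sarcomeres through ubiquitin ligases. Their transcript levels also follow the molecular clock, in which the factors CLOCK and BMAL1 switch on the period genes through DNA elements called E-boxes.

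The transgene itself could not be read. The array has 1 probe for Prokr1, the mouse gene of PKR1. It was not well above background on any of the 6 arrays and is not among the 19996 probes, and whether the transgene's transcript contains its sequence is not given in the sources used here.

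The 46 differences ran from 0.40 to 0.77 with a median of 0.50, or 1.32-fold to 1.71-fold with a fold of 1.41 at the median. Over all probes of the table the median difference was 0.01. Genes of metabolism made up 13 of the 46 probes. Regulators of transcription, with the clock genes Per1 and Tef, made up 9. Kinases, ubiquitin ligases and their signalling partners made up 8 probes of 7 genes, led by Sesn1 and Asb2, and cyclic AMP enzymes and potassium channels 5 probes of 4 genes. The other 11 were genes of membrane traffic, matrix and unrelated roles. These 5 groups were formed by hand after the gene names were seen.

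**Figure D1:**
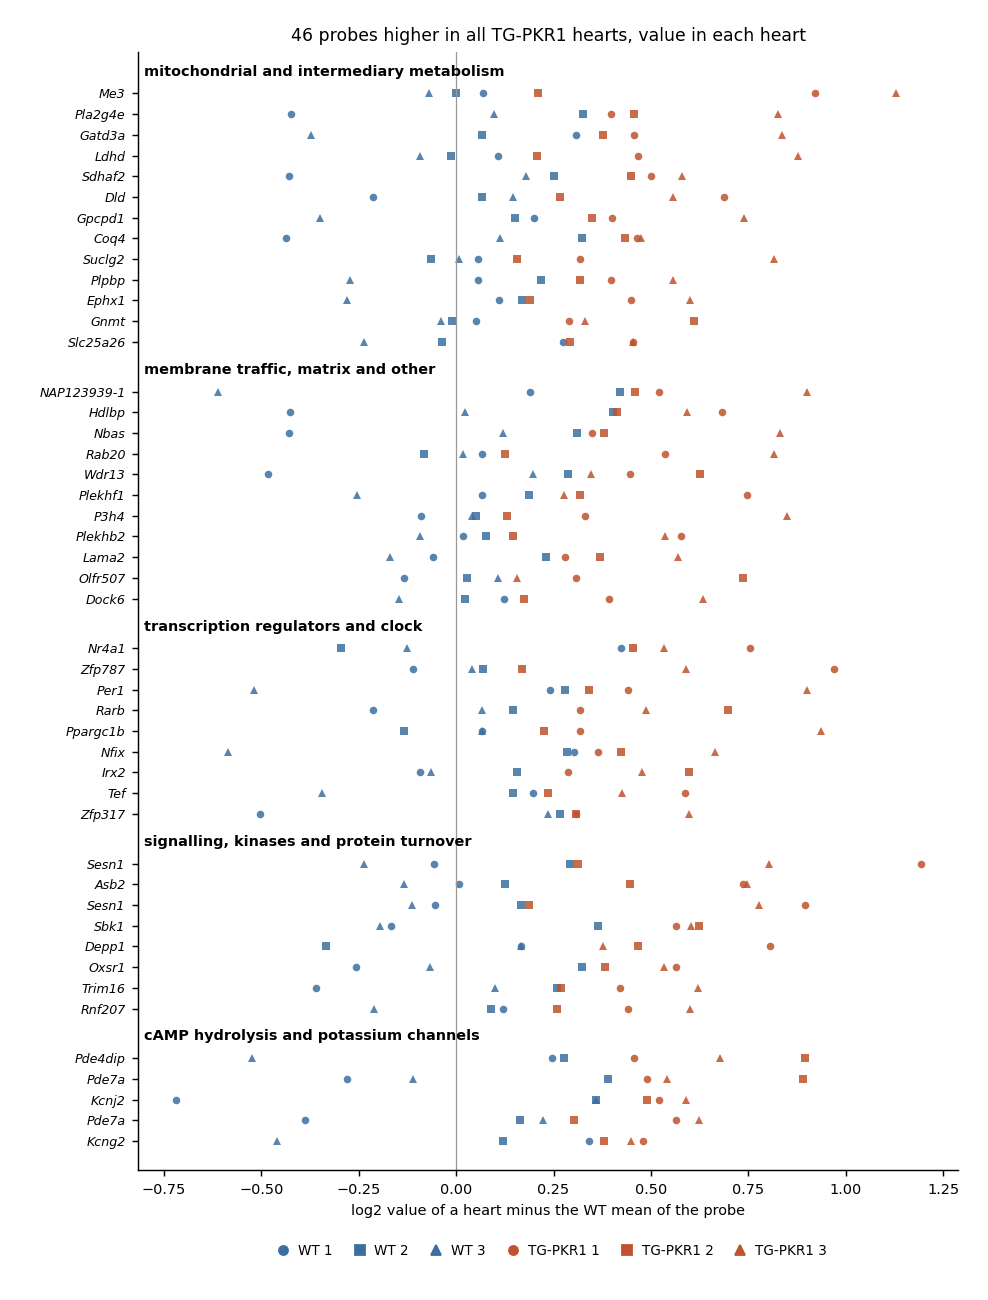
Value of each of the 46 probes in each heart, as the log2 value minus the WT mean of the probe, with the probes grouped by role and ordered by their difference. Blue symbols are WT hearts, red symbols TG-PKR1 hearts, and the symbol shape marks the mouse within its group. All red symbols lie to the right of all blue symbols of a row because the rule required it, and the space between the colours is at most 0.32.

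The hearts of the groups came close to each other for most of these probes, as the plot of values by heart shows. The gap between the lowest TG-PKR1 value and the highest WT value had a median of 0.08 and a range of 0.01 to 0.32. It was 0.1 or less for 31 probes and 0.2 or more for 5, those of Asb2, Gnmt, Depp1, Sbk1 and Sdhaf2. For 2 probes the gap was larger than the SD of both groups. The SD within the 3 WT hearts had a median of 0.28 over the 46 probes, against 0.20 over all probes, and the SD within the 3 TG-PKR1 hearts was 0.21 in both cases.

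The hearts nearest the other group were mostly the same ones. TG-PKR1 mouse 2 had the lowest value of its group for 31 of the 46 probes, and for 39.2% of all probes. WT mouse 2 had the highest value of its group for 27 of the 46 probes, and for 32.6% of all probes. Set against the WT mean of each probe, the median over the 46 probes was 0.01, 0.16 and −0.08 in WT mice 1 to 3. It was 0.46, 0.36 and 0.60 in TG-PKR1 mice 1 to 3, so that mouse 3 stood highest and mouse 2 lowest.

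For 26 of the 46 probes a single heart carried enough of the difference that leaving it out lowered the value by more than 1.5 times. Without WT mouse 1 this held for 10 probes, with differences of 0.35 for Hdlbp and Pla2g4e, 0.30 for Nbas, Sdhaf2 and the brighter Pde7a probe, 0.26 for Trim16, 0.24 for Coq4, 0.23 for Wdr13, 0.17 for Kcnj2 and 0.15 for Zfp317. Without WT mouse 3 it held for 9, with 0.41 for Pde4dip, 0.37 for Gatd3a, 0.32 for NAP123939-1 and Gpcpd1, 0.30 for Per1, 0.27 for Ephx1, 0.25 for Tef, 0.21 for Kcng2 and 0.19 for Nfix. These WT hearts had the lowest WT value of those probes.

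Single TG-PKR1 hearts did the same for 7 probes. Without TG-PKR1 mouse 3 the difference was 0.34 for Ldhd, 0.27 for Ppargc1b, 0.24 for Suclg2 and 0.23 for P3h4. Without mouse 1 it was 0.38 for Zfp787 and 0.30 for Plekhf1, and without mouse 2 it was 0.23 for Olfr507. The other 20 probes, with Asb2, both probes of Sesn1, Me3, Sbk1, Oxsr1, Dld, Rarb, Nr4a1 and Gnmt among them, moved by 1.5 times or less.

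Counts over the whole table give the scale of this set. Any probe without overlap of the groups and a higher TG-PKR1 level was counted 340 times, or 1.70% of the table, and with a lower TG-PKR1 level 529 times, or 2.65%. The mirror image of the rule, with TG-PKR1 values all lower and a difference of −0.4 or less, held for 227 probes, or 1.14%. A fit of limma over all 19996 probes with Benjamini-Hochberg adjustment called 0 probes higher in TG-PKR1 hearts (0%), and the smallest adjusted p among the higher probes was 0.990. At an unadjusted p under 0.05 it counted 74 higher probes, or 0.370%, and 276 lower probes, or 1.38%. Without WT mouse 3 it counted 34 higher and 206 lower probes. The balance turned to more higher probes without WT mouse 1, with 255 higher and 233 lower. It also turned without TG-PKR1 mouse 2, with 617 higher and 503 lower. None of the 46 probes passed the adjusted threshold.

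A difference of 0.4 or more without regard to overlap was found for 291 probes, or 1.46% of the table. Of these, 245 stayed outside the set because the groups overlapped, 53 of them by no more than 0.1. In 24 of the 245 the difference exceeded the largest among the 46 probes, up to 3.07. The set thus holds probes with modest differences and separated hearts rather than the probes with the largest mean differences.

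**Figure D2:**
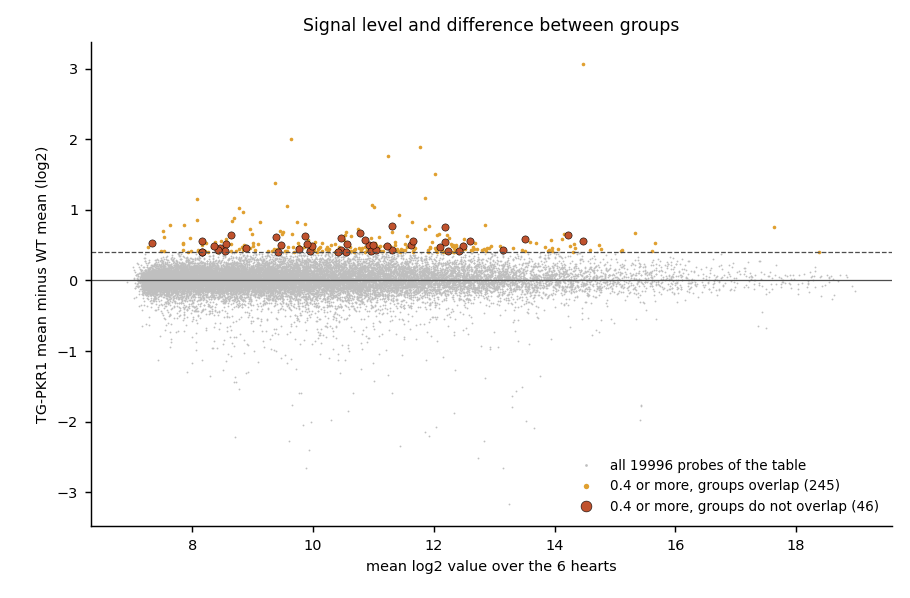
Difference between the TG-PKR1 and WT means (log2, vertical axis) against the mean log2 value over the 6 hearts (horizontal axis) for all 19996 probes in grey, the 46 probes in red and the 245 probes with a difference of 0.4 or more but overlapping groups in yellow. The dashed line marks 0.4. The red points span levels of 7.34 to 14.48, and many yellow points lie above them.

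The values on either side of the rule's limits were close. Just inside, a probe of Slc25a26 had a difference of 0.40 and its lowest TG-PKR1 heart, at 10.51, lay 0.02 above the highest WT heart, at 10.49. Just outside, a probe of Katnal1 had WT values of 8.51, 8.68 and 8.66 and TG-PKR1 values of 8.96, 8.80 and 9.28, and its difference was 0.397. A probe of Ppp1r13b had a difference of 0.47 but TG-PKR1 mouse 2 and WT mouse 2 shared the value 8.71.

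Among the signalling genes, Sesn1 stood first with 2 probes in the set. Sestrin 1 is a stress protein that holds back the growth kinase mTORC1 through the GATOR complexes, and its gene is a known target of p53 and FoxO factors. Its probe A_52_P53596 (chr10:41595706-41595765, plus strand, mm8 as in the scanner files) had 10.87, 11.22 and 10.69 in the WT hearts and 12.12, 11.24 and 11.73 in the TG-PKR1 hearts. Its probe A_51_P266644 had 9.03, 9.25 and 8.97 in the WT hearts and 9.98, 9.27 and 9.86 in the TG-PKR1 hearts.

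The differences of these 2 Sesn1 probes were 0.77 (WT 10.93 ± 0.27, TG-PKR1 11.70 ± 0.44, mean ± SD, n = 3 per group) and 0.62 (9.08 ± 0.15 against 9.70 ± 0.38). In both, TG-PKR1 mouse 2 lay 0.02 above WT mouse 2, while the other 2 TG-PKR1 hearts lay well above every WT heart. A further Sesn1 probe, the brightest of the gene, had 13.69, 14.47 and 13.89 in the WT and 14.46, 14.51 and 14.56 in the TG-PKR1 hearts. Its difference was 0.49, less than at the other probes of the gene, and it missed the rule because TG-PKR1 mouse 1 was 0.01 below WT mouse 2.

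The other sestrins did not follow Sesn1. The 2 probes of Sesn2 had differences of −0.36 and −0.32 and those of Sesn3 0.00 and 0.10, all with overlapping hearts. In a hand-written list of 27 sestrin, GATOR and mTORC1 genes, 26 had a probe in the table. Of their 42 probes 2 followed the rule, against 0.230% of the table. Both were of Sesn1 and already chosen by the rule. The list's median difference was 0.05, and limma called 0 of its probes. Tsc1, whose product restrains mTORC1, had a difference of 0.47 and Flcn, a regulator of the Rag GTPases, 0.44, in each case with overlap. Deptor, an inhibitor of mTOR, was lower in TG-PKR1 hearts without overlap at both of its probes. The brighter one had 11.81, 11.48 and 11.41 in the WT and 11.00, 11.05 and 10.91 in the TG-PKR1 hearts, a difference of −0.58, and the other had a difference of −0.34.

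Lists of p53 and FoxO targets were read in the same way. Both hold the Sesn1 probes, 2 of which the rule had chosen for their higher TG-PKR1 values. Of 28 probes of p53 targets, 15 had a higher TG-PKR1 mean, against 53.4% of the table. Only the 2 Sesn1 probes followed the rule, against 0.230% of the table, and the list's median was 0.02. The largest difference of this list lay in the other direction, at Phlda3, with 13.67, 13.35 and 13.24 in the WT and 12.59, 12.53 and 12.21 in the TG-PKR1 hearts, or −0.98. Of 30 probes of FoxO targets and muscle atrophy genes, 22 had a higher TG-PKR1 mean, against 53.4% of the table, and the median was 0.14. Again only the 2 Sesn1 probes were in the set, against 0.230% of the table. The 22 include the Sesn1 probes, with those chosen by the rule, and the probes of the single gene Cited2, at 0.10 to 0.26. In this list Fbxo32, the ubiquitin ligase atrogin-1, had a difference of 0.64 and missed the rule by 0.02 of overlap. Pdk4, the kinase that switches off pyruvate dehydrogenase, had the largest difference in the other direction, −0.73, with 15.06, 14.74 and 15.52 in the WT and 14.79, 13.99 and 14.36 in the TG-PKR1 hearts. Depp1, a FoxO target that regulates autophagy and is named 8430408G22Rik on the array, was not on the list and belonged to the set. It had 12.08, 11.58 and 12.08 in the WT and 12.72, 12.38 and 12.29 in the TG-PKR1 hearts, a difference of 0.55 with a gap of 0.21.

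Asb2 had the widest gap of all 46 probes. Its product is the substrate receptor of a cullin 5 ubiquitin ligase and directs filamins, the actin crosslinkers of muscle, to degradation. The probe (A_51_P115715, chr12:103722592-103722651, minus strand, mm8) had 13.91, 14.03 and 13.77 in the WT hearts and 14.64, 14.35 and 14.65 in the TG-PKR1 hearts. The difference was 0.64 (13.90 ± 0.13 against 14.55 ± 0.17, n = 3 per group), or 1.56-fold, and the gap of 0.32 exceeded both SDs. The probe lay brighter than 95.5% of the table, so its values were far from background.

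The partners of ASB2 showed no such separation. In a list of 25 ASB, cullin 5 ligase and filamin genes, 21 had probes. Of their 39 probes 1 followed the rule, against 0.230% of the table. It was that of Asb2, which the rule had already chosen. The 5 probes of Cul5 had differences of −0.15 to 0.18. The 3 probes of Flnc, the muscle filamin, had 0.11, 0.11 and 0.43, and the 3 of Flna, the widely expressed form, −0.20, −0.01 and −0.03. The list's median of 0.02 was close to that of the whole table.

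Sbk1 and Oxsr1 encode protein kinases. SBK1 is a serine/threonine kinase with an SH3-binding domain, and its probe (A_51_P498388, chr7:126085634-126085693, plus strand, mm8) had 10.00, 10.53 and 9.97 in the WT and 10.73, 10.79 and 10.77 in the TG-PKR1 hearts. The TG-PKR1 hearts had an SD of 0.03, the WT hearts an SD of 0.32, and the difference was 0.60. It was the one probe in the table for a list of the 3 SBK kinases.

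OXSR1 is switched on by WNK kinases and phosphorylates the cation-chloride cotransporters. Its probe A_52_P347705 (chr9:119117418-119117477, minus strand, mm8) had 7.86, 8.44 and 8.05 in the WT and 8.68, 8.50 and 8.65 in the TG-PKR1 hearts, a difference of 0.49. This probe was dim, with 28.5% of the table below it. The 2 other Oxsr1 probes, 1 of them much brighter at 10.60 to 11.31, had differences of 0.24 and 0.08 with overlapping hearts. In a list of 17 WNK, SPAK and OSR1 genes and cotransporters, 13 had probes, and the median was 0.10. Of their 23 probes 1 followed the rule, against 0.230% of the table. It was the Oxsr1 probe that the rule had already chosen.

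Brd3, a chromatin reader of the BET family, was examined beside these genes and did not belong to the set. Its highest probe by difference had 9.10, 9.62 and 9.34 in the WT and 10.06, 9.60 and 9.83 in the TG-PKR1 hearts. The difference was 0.48, but TG-PKR1 mouse 2 lay 0.02 below WT mouse 2. This overlap was found in the deposited table only. In the values rebuilt from the scanner files, the same probe met the full rule in all 3 ways, with differences of 0.55, 0.55 and 0.45 and gaps of 0.28, 0.15 and 0.11 after loess, 75th percentile scaling and normexp. Its other probes had differences of 0.14 and −0.13. In a list of 14 BET and transcription elongation genes, 0 of 25 probes followed the rule, against 0.230% of the table, and 0 were called by limma.

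**Figure D3:**
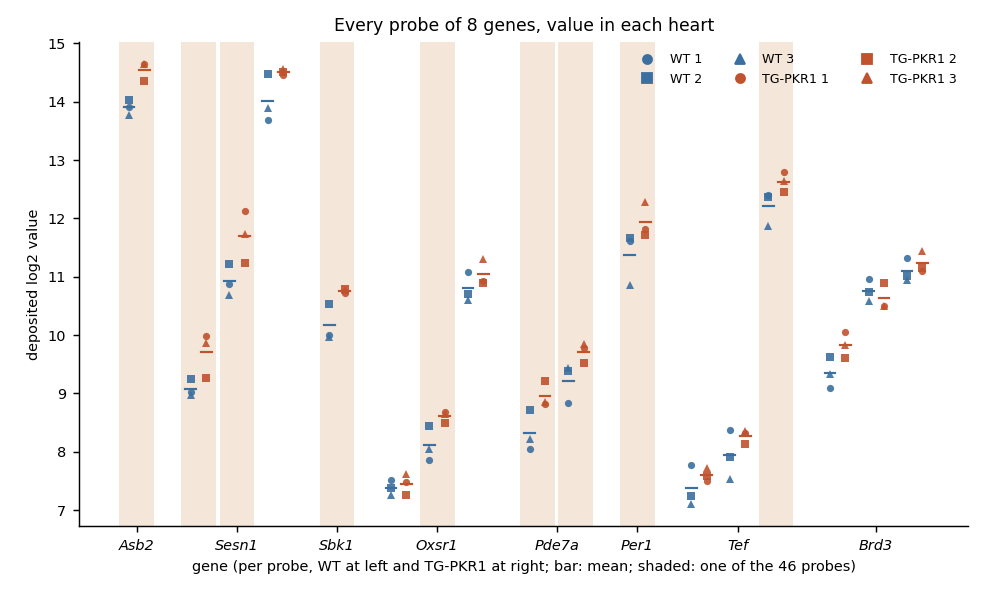
Deposited log2 value in each heart for every probe in the table of Asb2, Sesn1, Sbk1, Oxsr1, Pde7a, Per1, Tef and Brd3, with WT hearts in blue at the left and TG-PKR1 hearts in red at the right of each probe, and bars at the group means. Shaded probes are among the 46. Probes of 1 gene differ in level and in the size of the difference, as for Oxsr1 with 0.08, 0.49 and 0.24 from dim to bright.

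The 2 remaining genes of this group act in ubiquitin transfer. Rnf207, a cardiac RING finger gene linked to the repolarizing potassium channels, had a difference of 0.43, and Trim16, a tripartite motif gene of stress responses, had 0.44. The gap was 0.14 for Rnf207 and 0.01 for Trim16. Another Rnf207 probe had 0.13 with overlap, and the 2 other Trim16 probes had −0.26 and 0.03.

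The group of cyclic AMP enzymes and channels was small, with differences of 0.44 to 0.68. Pde7a encodes a phosphodiesterase that breaks down cyclic AMP, and it was the other gene with 2 probes in the set. Its probe A_52_P117892 had 8.04, 8.71 and 8.21 in the WT and 8.81, 9.21 and 8.86 in the TG-PKR1 hearts, a difference of 0.64. Its probe A_51_P293269 had 8.83, 9.38 and 9.44 in the WT and 9.78, 9.52 and 9.84 in the TG-PKR1 hearts, a difference of 0.50.

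Pde4dip encodes myomegalin, a scaffold that anchors phosphodiesterase 4D and protein kinase A. Its probe in the set had 10.68, 10.71 and 9.91 in the WT and 10.89, 11.33 and 11.11 in the TG-PKR1 hearts, a difference of 0.68. Of the 4 other Pde4dip probes, the brightest, with values of 17.53 to 17.87, also separated the groups in the deposited table, with a difference of 0.22 and a gap of 0.02, but overlapped after loess and after 75th percentile scaling of the scanner values. The remaining 3 had differences of −0.10, 0.41 and 0.56 and overlapped.

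Kcnj2 encodes Kir2.1, the inward rectifier channel that sets the resting potential, and it had the dimmest probe of the set. The WT values were 6.35, 7.43 and 7.43 and the TG-PKR1 values 7.59, 7.56 and 7.66. Most of its difference of 0.53 came from WT mouse 1, the lowest by 1.08, and the probe was well above background on 4 of the 6 arrays, the only one of the 46 with fewer than 6. Kcng2, a modifier subunit of voltage-gated potassium channels, was bright and had 13.27, 13.05 and 12.47 in the WT and 13.41, 13.31 and 13.38 in the TG-PKR1 hearts, a difference of 0.44.

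Among the transcription regulators, Nr4a1 had the brightest probe. It encodes an orphan nuclear receptor that is induced within a short time of a stimulus. The probe had 13.65, 12.93 and 13.10 in the WT and 13.98, 13.68 and 13.76 in the TG-PKR1 hearts, a difference of 0.58 with a gap of 0.03. Ppargc1b encodes PGC-1β, a coactivator of mitochondrial genes, and had 11.05, 10.85 and 11.05 in the WT and 11.30, 11.21 and 11.92 in the TG-PKR1 hearts.

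The difference of this Ppargc1b probe was 0.49, and 2 further probes of the gene had 0.17 and 0.04. The 2 probes of its relative Ppargc1a, the gene of PGC-1α, had differences of 0.45 and 0.36 with overlap. Rarb, the gene of retinoic acid receptor β, was printed in 10 spots on each array and is the one member whose value averages several spots. It had 10.47, 10.83 and 10.75 in the WT and 11.00, 11.38 and 11.17 in the TG-PKR1 hearts, a difference of 0.50 with a gap of 0.17. The zinc finger genes Zfp787 and Zfp317 (0.58 and 0.40), the nuclear factor I gene Nfix (0.48) and the homeobox gene Irx2 (0.45) completed the regulators. The other probes of Zfp787 and Zfp317 had differences of −0.23 and −0.08, and those of Nfix and Irx2 0.25 and 0.18, all with overlap.

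Per1 and Tef, genes of the molecular clock, were in the set. PER1 is a repressor of CLOCK and BMAL1. The Per1 probe (chr11:68925571-68925630, plus strand, mm8) had 11.62, 11.66 and 10.86 in the WT and 11.82, 11.72 and 12.28 in the TG-PKR1 hearts, a difference of 0.56 in which WT mouse 3 was low and TG-PKR1 mouse 3 high. TEF is a PAR bZIP factor of the clock's output, and its probe had 12.41, 12.36 and 11.87 in the WT and 12.80, 12.45 and 12.64 in the TG-PKR1 hearts, a difference of 0.42. Its 2 other probes, both dim, had 0.33 and 0.23 with overlap.

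The rest of the clock did not separate the hearts. Of 17 clock genes, 16 had probes, and 2 of 23 probes followed the rule, against 0.230% of the table. These 2 are the Per1 and Tef probes that the rule had chosen, so the count restates that choice. The list median was 0.16, and limma called 0 of its probes. Per2 had 9.38, 9.81 and 8.91 in the WT and 9.62, 9.90 and 9.83 in the TG-PKR1 hearts at its brighter probe, a difference of 0.42, and Per3 had a difference of 0.51. The gene of BMAL1, Arntl, had the opposite sign, −0.49, and Dbp, a relative of Tef, had 0.00. The hour at which the hearts were taken is not given in the sources used here, and its part in these values was not tested.

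Promoter sequence was available for part of the set. RefSeq windows of GRCm38.p6 were matched by symbol for 33 of the 44 genes, with 45 start sites, and the 250 bases before each start were searched on both strands. The E-box letters CACGTG, to which CLOCK and BMAL1 can bind, were found in 9 of these 45 windows (20%), against 6.02% of 32851 windows of the same length. They lay before starts of 8 genes, Asb2, Coq4, Hdlbp, Kcnj2, Ldhd, Per1, Rab20 and Tef. The member windows were richer in G and C, with a median of 59.6% against 52.4% over all windows, and the part of base composition in the counts was not tested. The 32851 windows were also not matched to the member genes for signal level in the heart, and the part of this was not tested either.

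The full cyclic AMP response element TGACGTCA was found in 1 member window, that of Oxsr1 (2.22%, against 1.55% of all windows). Its shorter core TGACG, which the full element contains, was in 26.7% of member windows and 17.8% of all. The D-box letters TTATGTAA or TTACGTAA and the FOXO letters GTAAACA were in none of the member windows, against 0.931% and 3.17% of all. A match is a description of the letters, and no binding was measured. Asb2 and Per1 each had another window without the E-box letters, and Tef had another with them. Windows of Asb2, Per1, Tef and Oxsr1 are shown for the largest gap, the clock genes and the only full response element of the set. Each runs 5′ to 3′ on the gene's strand and ends at the base before the start, and capitals mark the E-box in the first 3 and the response element in the last. They lie at chr12:103356002-103356251 (minus strand), chr11:69098699-69098948 (plus), chr15:81802423-81802672 (plus) and chr9:119322428-119322677 (minus), and the capitals begin 23, 166, 127 and 17 bases before the start.
Asb2: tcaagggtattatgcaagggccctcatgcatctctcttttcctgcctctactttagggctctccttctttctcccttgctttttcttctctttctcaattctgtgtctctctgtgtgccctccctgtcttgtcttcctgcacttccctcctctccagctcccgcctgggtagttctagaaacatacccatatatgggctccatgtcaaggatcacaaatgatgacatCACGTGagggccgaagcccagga
Per1: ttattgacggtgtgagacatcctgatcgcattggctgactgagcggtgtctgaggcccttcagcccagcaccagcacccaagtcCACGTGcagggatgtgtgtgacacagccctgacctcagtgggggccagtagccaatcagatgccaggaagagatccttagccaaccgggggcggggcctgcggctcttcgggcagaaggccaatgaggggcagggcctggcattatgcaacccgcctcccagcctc
Tef: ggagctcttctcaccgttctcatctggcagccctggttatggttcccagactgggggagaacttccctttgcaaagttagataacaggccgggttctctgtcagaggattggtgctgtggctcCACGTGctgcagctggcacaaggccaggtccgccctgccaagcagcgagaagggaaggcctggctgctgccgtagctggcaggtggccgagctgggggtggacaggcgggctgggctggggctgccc
Oxsr1: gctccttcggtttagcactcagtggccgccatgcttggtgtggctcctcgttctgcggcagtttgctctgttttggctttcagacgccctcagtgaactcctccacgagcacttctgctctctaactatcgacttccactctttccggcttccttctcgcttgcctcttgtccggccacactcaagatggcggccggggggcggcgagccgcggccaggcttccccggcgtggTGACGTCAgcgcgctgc

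Genes of metabolism formed the largest group, 13 probes of 13 genes with differences of 0.40 to 0.75 and a median of 0.50. Several work at the entry to or within the citric acid cycle. Me3 encodes the mitochondrial NADP-dependent malic enzyme, which turns malate into pyruvate, and its probe had 11.88, 11.81 and 11.74 in the WT and 12.73, 12.02 and 12.94 in the TG-PKR1 hearts. Its difference of 0.75, or 1.69-fold, was the second largest of the set, with close WT hearts (SD 0.07) and spread TG-PKR1 hearts (SD 0.48).

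Dld encodes dihydrolipoamide dehydrogenase, a subunit of the pyruvate and 2-oxoglutarate dehydrogenase complexes. Its probe in the set had 11.16, 11.44 and 11.52 in the WT and 12.06, 11.64 and 11.93 in the TG-PKR1 hearts, a difference of 0.50. Its 2 other probes were much brighter, at 14.43 to 15.01, and had differences of 0.01 and 0.10. The probes of this gene thus do not read the same difference.

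Sdhaf2, which attaches the flavin to succinate dehydrogenase, had 9.88, 10.56 and 10.49 in the WT and 10.81, 10.76 and 10.89 in the TG-PKR1 hearts. Its difference was 0.51, against 0.04 and 0.03 at its brighter probes. Suclg2, a subunit of the succinyl-CoA ligase that makes GTP, had 0.43 and, at its other probe, 0.38 with overlap. Coq4, needed for coenzyme Q synthesis, had 0.46 and at its brighter probe 0.06. Ldhd, the mitochondrial D-lactate dehydrogenase, had 0.52 and at its other probe 0.12.

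The other metabolic genes lie outside the cycle. Slc25a26 carries S-adenosylmethionine into mitochondria and had 0.40. Gnmt, which spends S-adenosylmethionine on glycine, had WT values of 8.39, 8.33 and 8.30 and TG-PKR1 values of 8.63, 8.95 and 8.67, and was the other probe whose gap, 0.24, exceeded both SDs. Gpcpd1 and Pla2g4e, both enzymes of phospholipid turnover, had 0.50 and 0.56, the epoxide hydrolase gene Ephx1 0.41, the pyridoxal phosphate binding protein gene Plpbp 0.42 and Gatd3a 0.56. A far brighter Gatd3a probe, at 16.22 to 16.69, had a difference of −0.06, and the other probes of Slc25a26, Ephx1, Plpbp and Gpcpd1 had 0.03 to 0.24. A list of 17 respiratory chain genes was read beside this group. Of its 24 probes 0 followed the rule, against 0.230% of the table, with a median of 0.08 and differences of −0.10 to 0.38.

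Of the 11 probes of other roles, the brightest of all 46 was that of Hdlbp, the gene of the RNA-binding protein vigilin. It had 13.77, 14.60 and 14.22 in the WT and 14.88, 14.61 and 14.79 in the TG-PKR1 hearts, a difference of 0.56 with a gap of 0.01, and 2 other Hdlbp probes had 0.13 and 0.05. Nbas (0.52), Rab20 (0.49), Plekhf1 (0.45) and Plekhb2 (0.42) encode proteins of vesicle traffic. A second Plekhb2 probe had 10.86, 11.07 and 10.93 in the WT and 11.45, 11.10 and 11.44 in the TG-PKR1 hearts, also without overlap, and missed the rule with a difference of 0.38. After normexp of the scanner values this probe overlapped by 0.02.

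Lama2, the laminin α2 chain of the muscle basement membrane, had 10.29, 10.58 and 10.18 in the WT and 10.63, 10.72 and 10.92 in the TG-PKR1 hearts. Its difference was 0.41, against 0.17 with overlap at its brighter probe. P3h4, a part of the collagen-modifying complex of the endoplasmic reticulum, had 0.44 and at its other probe 0.04, and the Rac and Cdc42 activator Dock6 had 0.40. Another Dock6 probe was well above background on only 5 of the 6 arrays. Its difference of 1.37 came from 1 heart, WT mouse 1 at 6.12 against 9.70 to 10.23 in the other 5. That difference was 2.33 after 75th percentile scaling of the scanner values and 0.82 after normexp. The WD repeat gene Wdr13 (0.47), an olfactory receptor gene, Olfr507 (0.40), and NAP123939-1, a name of the array without a gene symbol (0.63), completed the set.

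Of the 44 genes, 26 had a further 40 probes in the table that did not meet the rule. The TG-PKR1 mean was higher at 35 of these 40, against 53.4% of all probes of the table, and lower at probes of Trim16, Zfp787, Pde4dip, Zfp317 and Gatd3a. Only 2, those of Pde4dip and Plekhb2 above, separated the groups, against 1.70% of all. The median difference of the 40 was 0.16, less than the 0.50 of the members. The probes of a gene share the hearts and the transcripts, so they are no replicates, the members were taken for their high differences, and the 40 are those that the same rule left out.

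The set held brighter probes than the table. The mean log2 value over the hearts had a median of 10.56 for the 46 probes and 9.51 for all, and 16 of the 46 lay above the 75th percentile of the table. By the scanner software 45 of the 46 were well above background on all 6 arrays, against 93.6% of all probes, and none was saturated. The probes lay on 19 chromosomes in mm8, with at most 5 on one.

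The arrays did not share all settings. On the arrays of WT mouse 1 and TG-PKR1 mice 2 and 3 the software had rescaled the signals 8.57-fold to 8.73-fold, with a wider range before saturation, and on the other 3 it had not. The 75th percentile of signal stood 11.4 to 14.1 times above the local background on the former and 2.08 to 3.97 times on the latter. Both kinds of array held both groups, the first with 1 WT heart and the second with 1 TG-PKR1 heart. Within the first kind the median difference of the 46 probes was 0.53, and within the second 0.49. The sign of these differences is fixed by the choice of the probes. The difference of single probes moved more. For Nr4a1 it was 0.07 in the first kind and 0.97 in the second, and for Kcnj2 1.26 and 0.16.

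The values were also rebuilt from the scanner files of the same hearts in 3 ways. All 46 probes kept a higher TG-PKR1 mean in each, with a median difference of 0.55 after loess of the median signal, 0.54 after scaling the processed signal to the 75th percentile, and 0.43 after normexp correction and quantile normalization. The spot of WT mouse 1 was marked as an outlier by the software for Nbas and Tef, which leaves 44 probes with 6 values. After loess 38 of them had no overlap of the groups, against 2.82% of all probes, and 37 met the full rule, against 0.471%. After scaling to the 75th percentile 33 had no overlap, against 2.55%, and 31 met the rule, against 0.827%. After normexp and quantile normalization 33 had no overlap, against 2.27%, and 26 met the rule, against 0.175%. The deposited values come from the same scanner signals, and the members were chosen for their separation in them. High shares among the members therefore follow in large part from that choice and are no support for the differences. The probes that met it in all 4 processings numbered 21 and included Asb2, both probes of Sesn1 and of Pde7a, Me3, Sbk1, Oxsr1, Per1, Nr4a1 and Ppargc1b.

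**Figure D4:**
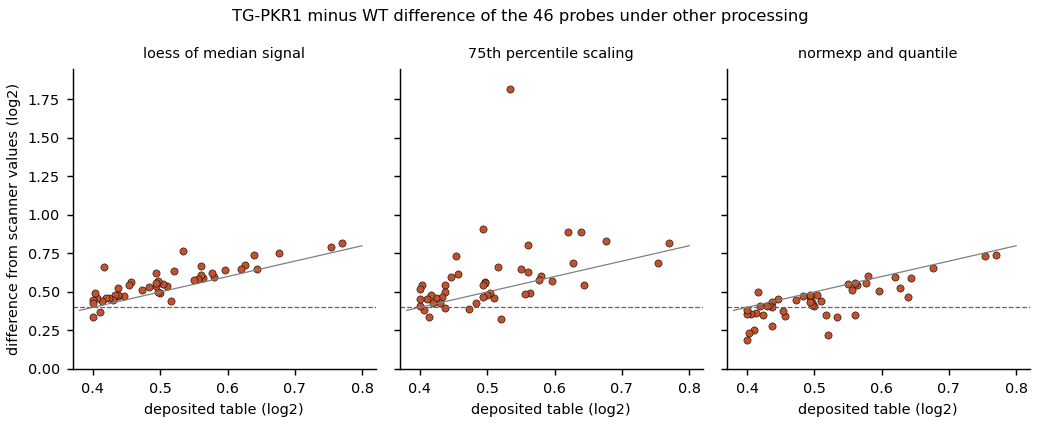
Difference between the TG-PKR1 and WT means of the 46 probes as rebuilt from scanner values (log2, vertical axis) against the deposited table (log2, horizontal axis), for 3 ways of processing. The diagonal marks equal values and the dashed line 0.4. All points lie above 0, most lie above the diagonal after loess and below it after normexp, and the point at 1.82 in the middle panel is Kcnj2.

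Markers of cell types were read in the same hearts. All 22 probes of 12 cardiomyocyte genes had a higher TG-PKR1 mean, against 53.4% of the table, with a median difference of 0.14 and 0 probes without overlap, against 1.70%. The log2 of their summed signal was 21.26 to 21.66 in WT and 21.41 to 21.73 in TG-PKR1 hearts. Such a sum is weighted to the brightest probes of a list. All 9 probes of 6 adipocyte genes were lower in TG-PKR1 hearts without overlap (2.65% of the table), with a median of −1.15. The log2 of their summed signal was 19.06 to 19.24 in WT and 18.09 to 18.46 in TG-PKR1 hearts. Of 5 brown adipocyte probes, 3 were lower without overlap, against 2.65% of the table. The other 2 had a higher TG-PKR1 mean, by up to 0.45. The log2 of the list's summed signal was 16.57 to 17.31 in WT and 14.97 to 15.46 in TG-PKR1 hearts.

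No probe of a marker list was among the 46. Of 5 Schwann and neural probes, 3 were lower without overlap, against 2.65% of the table, with a median of −0.66. The log2 of the list's summed signal was 11.73 to 11.84 in WT and 11.03 to 11.41 in TG-PKR1 hearts. The fibroblast, endothelial, smooth muscle, macrophage, lymphocyte, atrial, skeletal muscle and erythroid lists held 0 probes without overlap in either direction. A list of 9 cardiac stress genes, with Nppa, Nppb and Myh7, likewise had 0 of 15 probes without overlap, a median of 0.07 and differences of −0.20 to 0.55. The part of the makeup of the hearts in the differences of the 46 probes was not tested.

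**Figure D5:**
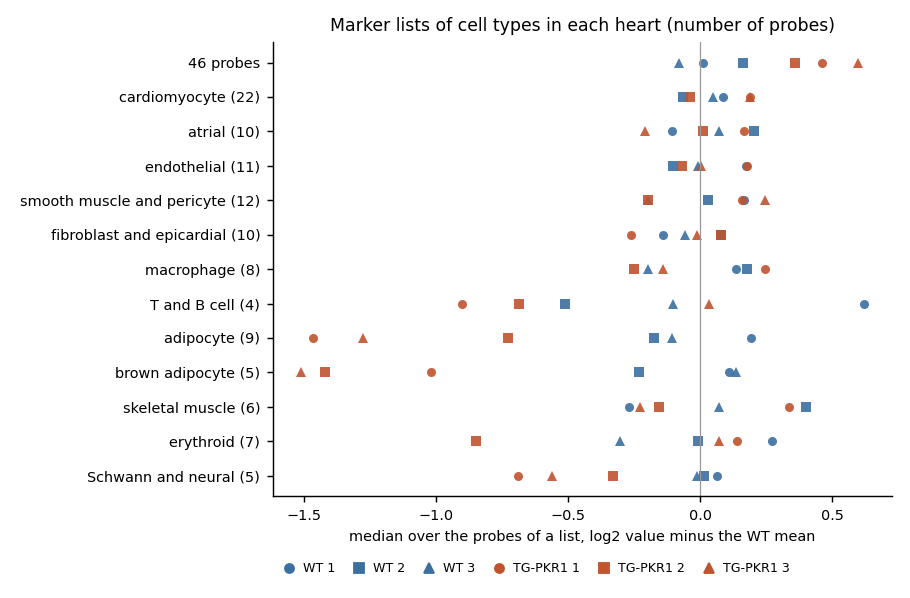
Median over the probes of a list, as the log2 value minus the WT mean of each probe, in each heart, for the 46 probes and 12 lists of cell type markers with their number of probes. Blue symbols are WT hearts and red symbols TG-PKR1 hearts. The medians of the adipocyte, brown adipocyte and Schwann and neural markers lie lower in all TG-PKR1 hearts, from −1.51 to −0.33. The other marker lists overlap.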

How the data were processed

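The authors deposited the fluorescence intensity of every spot of 6 arrays (1 heart each, 3 WT and 3 TG-PKR1), extracted with Agilent Feature Extraction 9.5.1.1 on a design annotated to mm8, together with other columns of flags for saturation and signal well above background. The log2 values deposited beside them had, per the study's methods, been normalized by LOWESS to the median profile of the arrays, averaged over repeated spots of a probe and reduced to the probes of highest median. Each of the 6 columns matched the scanner signals of its own heart best. The precision is limited by the number of arrays.

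The rule was applied to the deposited log2 values. Symbols were updated by RefSeq accession (43 of the 46 probes) or name (2), and 1 probe kept the name of the array. limma 3.58.1 in R 4.3.3 was fitted over all 19996 probes, with Benjamini-Hochberg adjustment and a threshold of 0.05. It was tested on simulated data, and no outcome of that is given here. SAM, which the study's methods name, needs other assignments of the hearts and was not run. Scanner values were rebuilt by loess (span 0.3, 4 iterations), by the 75th percentile of the processed signal, and by normexp (offset 50) with quantile normalization, each without spots marked as outliers. Further alternatives were other thresholds, averaging per gene, filters on dim probes, scan mode as a block and leaving out each heart.

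Genes named with values were Asb2, Sesn1, Oxsr1, Sbk1 and Brd3, the 20 probes with the largest difference, genes with 2 probes, the 3 brightest probes, those at the threshold and members of a gene list. Other members are named where their group is described, and Rarb, Ppargc1b, Gnmt, Kcng2 and Lama2 were given with each heart's value after their values were seen. The members, the gene lists and this rule were chosen with earlier results of these data known. Values were tabulated in Python 3.11.15 used pandas 2.3.3 and numpy 2.4.6, and scanner files were read with version 1.17.8 of the R package data.table.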

Additional observations from a re-analysis of the deposited data

How the results depend on the processing

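No paired analysis was possible because WT mouse 2 and TG-PKR1 mouse 1 shared a slide but no label ties the other hearts. With 3 hearts per group, the count of 46 probes depended on the processing. Of 598 differences of the 46 under 13 alternatives, 472 were 0.4 or more and 24 moved by more than the larger group SD. Their sign says little, since leaving out a heart or splitting by scan mode cannot turn it. The count was 94 after loess of the median signal (37 of the 46 shared) and 165 after 75th percentile scaling (31 shared). It was 110 at a difference of 0.3 or more, 21 at 0.5 or more, and 22 when probes of a gene were averaged first. It was 35 after normexp and quantile normalization (26 shared), and 46 and 45 when a probe had to clear background on 3 or on 6 arrays, the last filter chosen after seeing the data. Without 1 heart it ran from 77 (without TG-PKR1 mouse 3) to 704 (without TG-PKR1 mouse 2), and was 375, 234 and 93 without WT mice 1 to 3 and 156 without TG-PKR1 mouse 1. With fewer hearts, fewer comparisons must hold. Of the 46, 28 to 43 were shared. The median difference of the 46 was 0.43 to 0.57 under its 13 alternatives. limma called 0 probes higher in every one of its 13 alternatives, among them an adjusted p under 0.1. Slide as a random block could not be fitted, since 6 arrays on 5 slides gave no estimate of the correlation. Signal over background limits Kcnj2 most, and bases of the probes were not analysed here.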
